A study of Mus musculus with 4 samples.

Results

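Matrix metalloproteinases are zinc-dependent endopeptidases that cut collagens, laminins, fibronectin and other proteins of the extracellular matrix, and cells that move through a matrix use them to open a path. Most are secreted as inactive proenzymes and some sit in the plasma membrane, and their tissue inhibitors, the TIMPs, are small secreted proteins that block the active site. Fibroblasts are a main source of both in connective tissue, and the inducible members are best known for their response to growth factors and cytokines through AP-1 transcription factors.

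The genes described are 7 metalloproteinases, Mmp2, Mmp3, Mmp9, Mmp10, Mmp13, Mmp14 and Mmp19, and 3 inhibitors, Timp1, Timp2 and Timp3. They were taken by gene name from the array and are 10 of its 27827 gene names. They are read by 13 probes, each a 60-base oligonucleotide, on 22 spots of each array, 10 of which belong to 1 Mmp9 probe. The study asked how gene expression changes in mouse embryonic fibroblasts (MEFs) without inositol hexakisphosphate kinase 1 (IP6K1), an enzyme that makes inositol pyrophosphates. It compared 2 Ip6k1+/+ lines with 2 Ip6k1-/- lines, each from 1 embryo of embryonic day 14 (E14), all from 1 mating of heterozygous mice. All 4 lines carry the SV40 large T antigen, were thawed, passaged 2 times and were untreated, so that no wild-type line is free of the viral oncogene and each genotype is represented by 2 immortalised lines. RNA of each line was labelled with Cy3 and hybridised to 1 array of 1 slide.

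Values are given as log2 of the processed spot signal minus the 75th percentile of that array, so that 0 is the level of the 75th percentile spot, and a difference of 1 is 2-fold. Levels of different probes are not comparable, since probes differ in how brightly they bind. A spot is called above background where the scanner software rated it as well above background. Of the 3 probes for Ip6k1, all were above background in both Ip6k1+/+ lines, 2 were not in either Ip6k1-/- line, and the other was at 2.46 and 2.61 against -1.98 and -1.23. All 14 fibroblast markers were above background in every line except Lum in Ip6k1-/- replicate 2, with the collagen Col1a1 at 5.01, 5.54, 5.17 and 4.17, on its brightest probe that was not saturated, in the order Ip6k1+/+ replicates 1 and 2, then Ip6k1-/- replicates 1 and 2. This order is kept for all sets of 4 values. Of the 14 markers, the proteoglycan Dcn, the receptor Pdgfrb and the collagen Col3a1 were lower in both Ip6k1-/- lines by more than 2-fold in the mean. Their differences were -2.40, -1.20 and -1.25. Both Ip6k1-/- lines were below both Ip6k1+/+ lines on 12.6% of all probes tested. Col3a1 was at 6.24, 5.90, 5.46 and 4.17, and did not pass the cutoff used below, which also sets a limit for each line. Dcn and Pdgfrb passed it, lower, beside 1.87% of all probes tested, and 0 markers passed it higher. Thy1 was higher in the mean, by 0.90 and 1.03 on its probes, and its genotypes overlapped. In such bulk RNA, fewer cells that express a gene and less RNA per cell cannot be told apart.

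Mmp13, Mmp3 and Mmp10 lie in 1 group of metalloproteinase genes on chromosome 9, in build mm9, where their probes span 227.3 kb. The probes of Mmp12 and Mmp1a lie between them. Mmp13 is a collagenase, and Mmp3 and Mmp10 are the stromelysins, which have a broad range of substrates. Since Mmp13, Mmp3 and Mmp10 shared their highest line, their promoters are shown, all on the plus strand. These run from 250 bases before to 50 bases after the RefSeq start in build GRCm38.p6. They are Mmp13 at chr9:7272264-7272563, Mmp3 at chr9:7445572-7445871 and Mmp10 at chr9:7502092-7502391. Capitals mark the AP-1 motif (TGAGTCA, or TGACTCA on the other strand) and the TATA box (TATAAA).
Mmp13: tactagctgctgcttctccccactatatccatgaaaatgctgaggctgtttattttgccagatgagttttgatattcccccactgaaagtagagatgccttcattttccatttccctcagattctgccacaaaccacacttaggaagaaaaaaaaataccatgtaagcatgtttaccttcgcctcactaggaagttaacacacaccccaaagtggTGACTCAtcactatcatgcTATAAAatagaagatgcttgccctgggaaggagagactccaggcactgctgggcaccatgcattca
Mmp3: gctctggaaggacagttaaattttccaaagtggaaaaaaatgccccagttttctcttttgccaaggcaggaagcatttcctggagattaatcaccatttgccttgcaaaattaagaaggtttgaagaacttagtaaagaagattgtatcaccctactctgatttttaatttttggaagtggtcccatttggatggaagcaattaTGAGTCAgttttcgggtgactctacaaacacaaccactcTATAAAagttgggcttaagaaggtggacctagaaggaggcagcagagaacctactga
Mmp10: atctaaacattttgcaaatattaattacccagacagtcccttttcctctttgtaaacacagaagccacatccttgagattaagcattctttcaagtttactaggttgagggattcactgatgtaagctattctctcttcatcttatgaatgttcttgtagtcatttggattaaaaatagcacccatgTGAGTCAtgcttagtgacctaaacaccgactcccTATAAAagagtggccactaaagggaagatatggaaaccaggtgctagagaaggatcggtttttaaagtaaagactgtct
Each of the 3 promoters held 1 AP-1 motif followed by 1 TATA box. The AP-1 motif began at -35 in Mmp13, where it lies on the minus strand, at -46 in Mmp3 and at -63 in Mmp10, and the TATA box at -16, -7 and -29. Both strands were searched, and of 32851 mouse promoters of this length 5.20% held this AP-1 motif and 13.6% this TATA box. RefSeq promoters were given for 7 of the 10 genes. Those of Mmp14, Timp1, Timp2 and Timp3 held neither motif. The Ets motif AGGAAG, present in 35.4% of all promoters, was found in Mmp3, Mmp13, Mmp14, Timp1 and Timp3, and the RUNX motif TGTGGT, present in 16.8%, in Mmp13 and Mmp14. These are matches of letters, and binding of a factor was not measured.

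**Figure D1:**
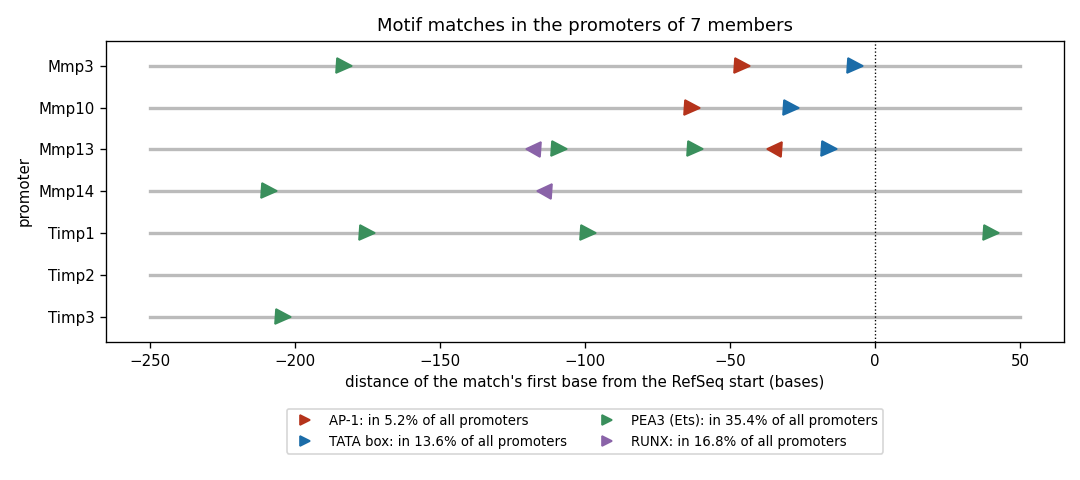
Positions of 4 motifs in the promoters of 7 members, from 250 bases before to 50 after the RefSeq start (x axis, in bases; dotted line, start), with triangles pointing right for the plus strand and left for the minus strand. An AP-1 motif (red) and a TATA box (blue) stand near the start in Mmp3, Mmp10 and Mmp13, and in none of the other 4.

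No member passed the test for genotype. Of the 13 probes, 10, for 8 genes, were above background in both lines of 1 genotype or the other and were tested, and 0 had a limma adjusted p of at most 0.05, beside 0.0139% of all 21573 probes tested. The lowest adjusted p among them was 0.993 in limma, and 1 of the 10, Mmp19, which was at background in both Ip6k1-/- lines, had an unadjusted p under 0.05, beside 3.34% of all probes. By a cutoff of 2-fold in the mean, with both Ip6k1-/- lines 0.9 or more from the Ip6k1+/+ mean on the log2 scale, 1 member was lower, Mmp19, beside 1.87% of all probes, and 0 were higher, beside 1.06%. On 1 of the 10 tested probes, again Mmp19, both Ip6k1-/- lines were below both Ip6k1+/+ lines, beside 12.6% of all probes. On 0 of the 10 were both above, beside 18.8%. On the other 9 probes the genotypes overlapped. The counts by the 2-fold cutoff depended on single lines: 5 genes were lower without Ip6k1-/- replicate 1, 2 were lower without Ip6k1+/+ replicate 1, and 3 were higher without Ip6k1-/- replicate 2. Leaving out a line also changed which probes passed the filter, so that Mmp9 entered without Ip6k1+/+ replicate 1, and Mmp10 entered without that line or without Ip6k1-/- replicate 2.

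**Figure D2:**
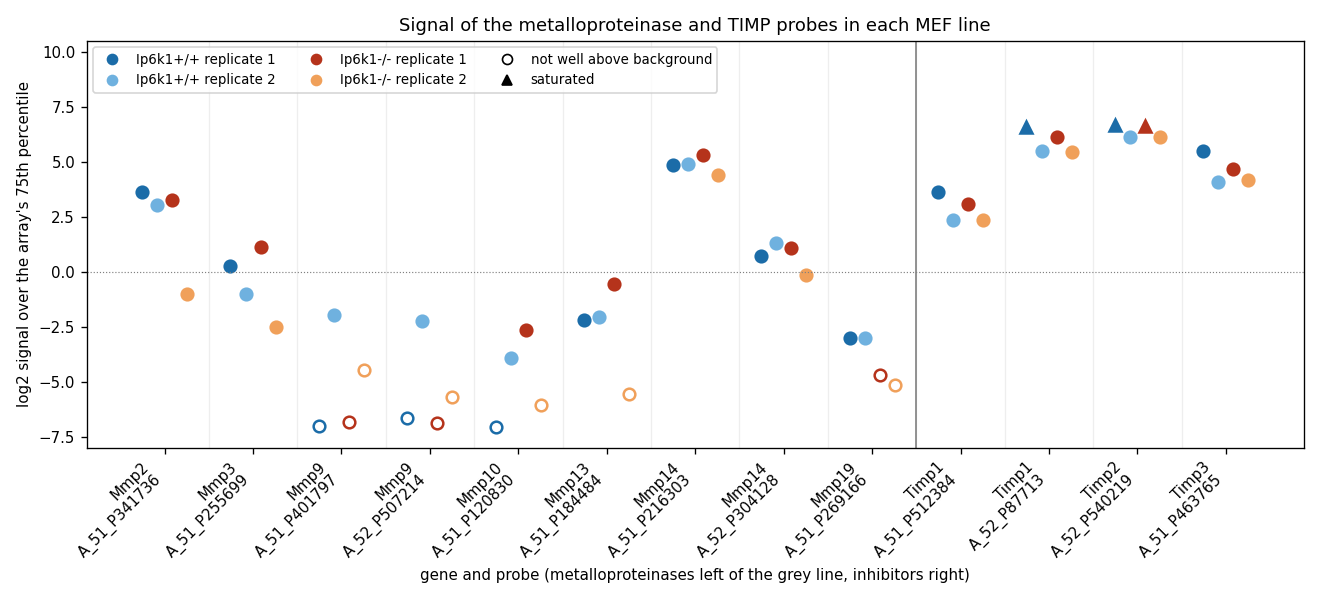
Signal of each of the 13 member probes (x axis) in the 4 MEF lines, as log2 over the 75th percentile of the array (y axis), with 1 point per line, open where not well above background and triangular where saturated. Mmp2, Mmp3 and Mmp13 are low in Ip6k1-/- replicate 2, Mmp9 is above background only in Ip6k1+/+ replicate 2, and Mmp19 is at background in both Ip6k1-/- lines.

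Mmp19, a secreted metalloproteinase that cuts basement membrane proteins, was the member whose signal separated the genotypes. Its probe (A_51_P269166, chr10:128236221-128236280 in mm9) gave -3.01, -3.04, -4.71 and -5.14. It was dim, and above background in both Ip6k1+/+ lines and in neither Ip6k1-/- line. It thus entered the test through the Ip6k1+/+ lines alone, and its level in Ip6k1-/- is known only as a bound. Measured against the lowest signal above background, or the probe's own where higher, the Ip6k1+/+ lines were at least 3.17-fold higher (adjusted p = 0.993 in limma, whose fitted difference of -1.90 uses the background values). The Ip6k1+/+ lines lay 0.02 apart. With normexp background correction the fitted difference was -1.05 (adjusted p = 0.998 in limma), and with the filter at all 4 arrays Mmp19 was not tested.

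Mmp2, Mmp3 and Mmp13 differed most between the Ip6k1-/- lines. Mmp2, the gelatinase that fibroblasts make constitutively (probe A_51_P341736, chr8:95376840-95376899), was at 3.60, 3.05, 3.24 and -1.04. Ip6k1-/- replicate 1 lay between the Ip6k1+/+ lines, and replicate 2 was 19.4-fold below replicate 1. The spot signals behind these values were 7411, 6170, 5794 and 330, so that Mmp2 was above background in the low line too. Its mean difference was -2.22 (SE 1.42, 95% interval -5.92 to 1.48, adjusted p = 0.993 in limma).

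Mmp3 (probe A_51_P255699, chr9:7455751-7455810) was at 0.27, -1.001, 1.14 and -2.54. The highest and the lowest value were both of Ip6k1-/- lines, 12.8-fold apart, and the Ip6k1+/+ lines lay between them. The mean difference was -0.34 (SE 1.29, adjusted p = 0.993 in limma). Mmp13 (probe A_51_P184484, chr9:7282762-7282821) was at -2.19, -2.07, -0.56 and -5.56, the last not above background. Ip6k1-/- replicate 1 was again the highest line and replicate 2 the lowest, at least 17.3-fold apart, while the Ip6k1+/+ lines differed by 0.11. The fitted mean difference, which uses the background value of replicate 2, was -0.93 (SE 1.65, adjusted p = 0.993 in limma).

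Mmp10 (probe A_51_P120830, chr9:7510011-7510070) was above background in 1 line of each genotype and was not tested. It was at -7.05, -3.91, -2.64 and -6.07, of which the first and the last were not above background. Ip6k1-/- replicate 1 was the highest line here too, at least 4.10-fold over replicate 2 and at least 5.89-fold over Ip6k1+/+ replicate 1, and Ip6k1+/+ replicate 2 was at least 2.44-fold over Ip6k1+/+ replicate 1. The probes of Mmp3 and Mmp10 share at most 23 of 60 bases in any ungapped alignment with an overlap of 30 or more. Thus Mmp3, Mmp10 and Mmp13 had their highest level in the same Ip6k1-/- line, and Mmp2, Mmp3 and Mmp13 their lowest in the other. The array held probes for 5 more metalloproteinase genes of the chromosome 9 group, Mmp1a, Mmp7, Mmp8, Mmp12 and Mmp20, and none was above background in any line.

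The size of these gaps was set against all probes. The median gap between the Ip6k1-/- lines was 0.31 on the log2 scale over the 21573 probes tested, and the 90th percentile was 1.08. The gap was 4.28 for Mmp2 and 3.68 for Mmp3, larger than for 99.2% and 98.8% of the probes tested, and for Mmp13 it is the bound of 17.3-fold. Between the Ip6k1+/+ lines the same probes differed by 0.56, 1.27 and 0.11, where the median probe differed by 0.36. Ip6k1-/- replicate 2 was below replicate 1 on all 10 member probes tested, as on 43.4% of all probes. All 10 were also lower in the mean of Ip6k1-/-, as were 43.5% of all probes, whose median difference was 0.05. The 10 probes read 8 genes in the same 4 lines and are no independent count.

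**Figure D3:**
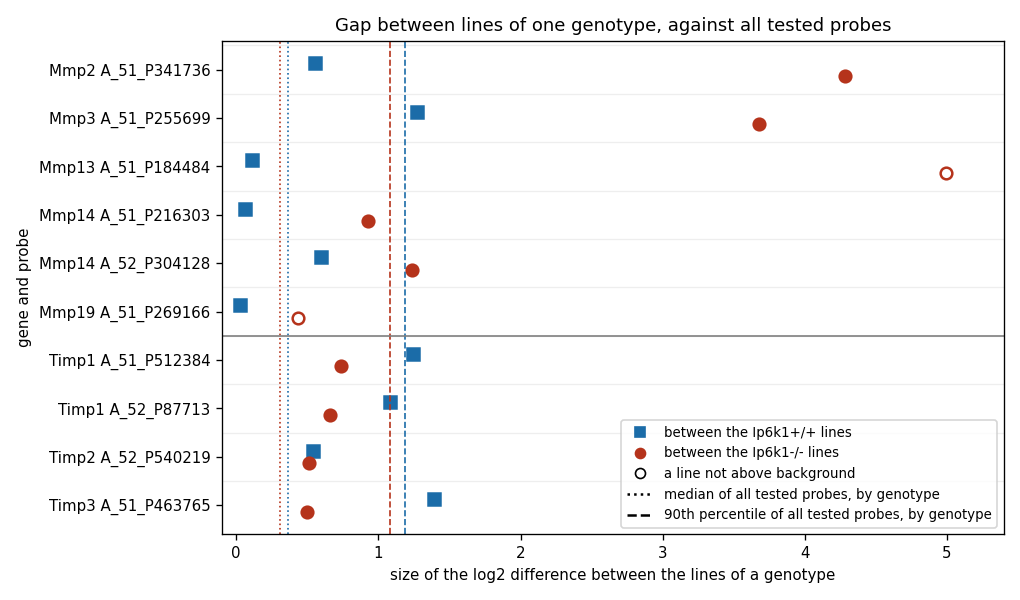
Size of the log2 difference between the Ip6k1+/+ lines (squares) and between the Ip6k1-/- lines (circles) for the 10 member probes tested, open where a line was not above background, with the median (dotted) and 90th percentile (dashed) of all tested probes in the colour of each genotype. The Ip6k1-/- gaps of Mmp2 and Mmp3 are 4.28 and 3.68, that of Mmp13 is read against a background value, and those of the TIMP probes are all under 1.

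Mmp14, the membrane-anchored MT1-MMP that activates the proenzyme of Mmp2 together with Timp2, was measured by probes about 1 kb apart. Probe A_51_P216303 (chr14:55059969-55060028) was at 4.83, 4.90, 5.31 and 4.39, and the mean difference was -0.02 (SE 0.34, 95% interval -0.91 to 0.88, adjusted p = 0.998 in limma). Probe A_52_P304128 (chr14:55058775-55058834) was at 0.69, 1.29, 1.09 and -0.14, with a mean difference of -0.51 (SE 0.49, adjusted p = 0.993 in limma). On both, Ip6k1-/- replicate 2 was the lowest line, as for Mmp2, but by less. The gap between the Ip6k1-/- lines was 0.93 and 1.24.

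Mmp9, the other gelatinase, was above background in a single line, Ip6k1+/+ replicate 2. It was read by 2 probes, of which A_51_P401797 (chr2:164780303-164780362) is shown because the same pattern on a separate probe bears on the single-line signal.
Mmp9 A_51_P401797: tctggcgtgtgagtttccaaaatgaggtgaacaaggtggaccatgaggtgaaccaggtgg
It was at -7.01, -1.95, -6.83 and -4.48, and probe A_52_P507214 (chr2:164780620-164780679), printed on 10 spots, at -6.66, -2.26, -6.88 and -5.72. On the array of Ip6k1+/+ replicate 2, all 10 spots were above background, with signals from 144 to 165 and an SD of 0.06 on the log2 scale, and on the other 3 arrays 0 of 10 were, with signals from 4.03 to 21.5. Ip6k1+/+ replicate 2 was at least 9.46-fold, 6.97-fold and 5.76-fold over Ip6k1+/+ replicate 1, Ip6k1-/- replicate 1 and Ip6k1-/- replicate 2 on the first probe, and at least 7.67-fold, 5.65-fold and 5.34-fold on the second. The gap lay between the Ip6k1+/+ lines and was not tested for genotype.

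**Figure D4:**
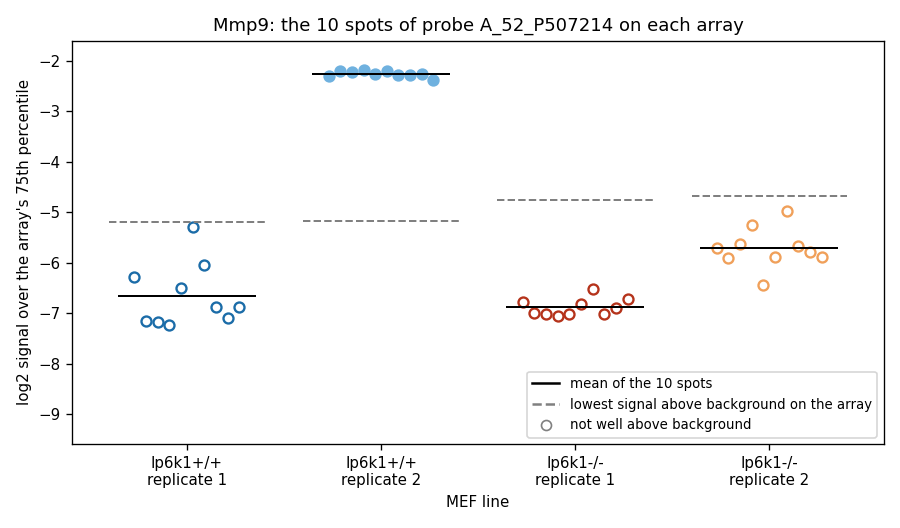
The 10 spots of Mmp9 probe A_52_P507214 on each array, as log2 over the 75th percentile (y axis), with their mean (black line) and the lowest signal rated above background on that array (dashed); open points were not above background. The spots of Ip6k1+/+ replicate 2 lie between -2.38 and -2.18, and those of the other lines between -7.24 and -4.98.

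Markers of other cell types that make these proteases were read in the same arrays. Of 10 macrophage and leukocyte markers on the array, between 3 and 4 were above background in a line, and Ptprc, Emr1, Itgam, Tyrobp and Laptm5 were so in none. The summed signal of the list's probes, in multiples of the 75th percentile, was 1.12, 1.12, 1.11 and 0.90. Lyz2, a lysozyme of macrophages, was above background in the same single line as Mmp9, at -5.11, -2.34, -6.27 and -5.35 on 1 of its 2 probes, a gene picked from the list after its values were seen. Others of the list did not follow it, with Csf1r above background in Ip6k1+/+ replicate 1 alone and Cd14 at -0.56, -0.90, -0.95 and -1.12. The epithelial markers Krt8, at -3.59 and -3.47 on its 2 probes, and Epcam, at -4.93, were also above background in Ip6k1+/+ replicate 2 alone. Krt18 was highest in that line, at -0.66, 1.56, -1.35 and 0.55. Other epithelial markers did not follow, with Krt19 lowest in that line, at 1.92, 0.31, 1.89 and 2.35. Cldn3 was at -3.89, -3.92, -4.02 and -3.99, and Krt5 was above background in both Ip6k1+/+ lines. The part of such cells in the Mmp9 signal was not tested. Of 5 osteoclast markers 3 were above background in each line, with sums of 2.88, 2.82, 1.31 and 2.07, and Calcr and Tm7sf4 in none. Acp5 of this list was at -1.81, -1.06, -4.50 and -2.81. It passed the 2-fold cutoff, lower, beside 1.87% of all probes tested (difference -2.22, SE 0.67, adjusted p = 0.993 in limma). Ctsk was at 1.30, 1.15, 0.15 and 0.87. For Acp5 and Ctsk both Ip6k1-/- lines were below both Ip6k1+/+ lines, as for Mmp19 and for 12.6% of all probes tested. The other detected marker, Oscar, was at -3.20, -3.24, -2.98 and -3.68, and its genotypes overlapped. The part of osteoclasts in the Mmp19 signal was not tested.

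Chondrocytes and osteoblasts are known to make Mmp13. Of 7 chondrocyte markers 5, 3, 4 and 3 were above background, with sums of 15.5, 3.94, 4.73 and 0.56, lowest in the line that was lowest in Mmp2, Mmp3 and Mmp13. Sox9, the chondrocyte transcription factor, picked after its values were seen, was at 1.66, 1.04, 1.07 and -2.75 on its brightest probe. Col2a1 was at 2.15, -1.10, -1.07 and -3.18 on its brightest probe. It passed the 2-fold cutoff, lower, beside 1.87% of all probes tested (difference -2.65, SE 1.29, adjusted p = 0.993 in limma). Its Ip6k1+/+ lines lay 3.26 apart, and its genotypes overlapped. Col9a1 and Matn1 were above background in no line. The part of chondrocytes in the protease levels was not tested. Of 6 osteoblast markers 3, 2, 2 and 2 were above background, with sums of 3.64, 2.83, 4.08 and 3.11, and Sp7, Ibsp and Alpl in none. The sums over the 14 fibroblast markers were 748, 728, 691 and 608. They are lower limits, since the brightest probes of this list were saturated. Those of Col1a1, Col1a2 and S100a4 were saturated in every line, and that of Vim in all but Ip6k1+/+ replicate 1. In the 4 lines, 4, 6, 3 and 3 of 9 epithelial, 2 or 3 of 8 endothelial and 1 or 2 of 8 muscle markers were above background.

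The TIMPs were above background in every line and varied less between the Ip6k1-/- lines. Timp1 has a probe that stayed below saturation (A_51_P512384, chrX:20449905-20449964), which is shown because its difference is not limited by the scanner.
Timp1 A_51_P512384: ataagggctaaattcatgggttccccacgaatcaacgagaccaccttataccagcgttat
It was at 3.60, 2.36, 3.09 and 2.35, and the genotypes overlapped. The mean difference was -0.26 (SE 0.50, 95% interval -1.58 to 1.05, adjusted p = 0.993 in limma). The other Timp1 probe (A_52_P87713, chrX:20451675-20451733) was at 6.58, 5.50, 6.11 and 5.45, saturated in the first line, and also differed by -0.26 (SE 0.44, adjusted p = 0.993 in limma).

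Timp2 (probe A_52_P540219, chr11:118163146-118163205, minus strand) was at 6.66, 6.12, 6.64 and 6.12, saturated in replicate 1 of both genotypes. Its mean difference was -0.01 (SE 0.29, 95% interval -0.76 to 0.75, adjusted p = 1.00 in limma). This fit uses the capped values of both saturated lines, whose difference from each other is not known. The gaps from an unsaturated to a saturated line are lower limits. Timp3, which binds to the matrix (probe A_51_P463765, chr10:85811696-85811755), was at 5.46, 4.08, 4.69 and 4.19, with a mean difference of -0.33 (SE 0.51, 95% interval -1.66 to 0.99, adjusted p = 0.993 in limma). On both Timp1 probes and on Timp3, Ip6k1+/+ replicate 1 was the highest line, and on all 4 TIMP probes replicate 2 of the genotypes differed by 0.11 or less. The gap between the Ip6k1+/+ lines was 1.25 and 1.08 for Timp1 and 1.39 for Timp3, larger than for 90.9%, 88.0% and 92.6% of the probes tested.

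Proteases and inhibitors were then set side by side, with 1 probe per gene. The 5 tested proteases had a median genotype difference of -0.93, with values from -2.22 to -0.02. The 3 inhibitors had a median of -0.26, with values from -0.33 to -0.01. The protease median was that of Mmp13, which uses a background value. The inhibitor median was that of the Timp1 probe saturated in Ip6k1+/+ replicate 1, and Timp2 was saturated in replicate 1 of both genotypes. The balance differed between the Ip6k1-/- lines. Against the Ip6k1+/+ mean, the proteases of replicate 1 had a median of 0.45 and those of replicate 2 of -2.17, while the inhibitors had 0.07 and -0.58. The gap between the medians was -0.67 for the genotype mean, 0.38 for Ip6k1-/- replicate 1 and -1.59 for replicate 2. Without replicate 2 the same 5 proteases thus had a median of 0.45, and 0.98 with Mmp10, which then passed the filter, for a gap of 0.91. The lower protease level rests on this line. The inhibitor median also depended on single lines. It turned to 0.28 without Ip6k1+/+ replicate 1 and to 0.07 without Ip6k1-/- replicate 2, and fell to -0.80 without Ip6k1+/+ replicate 2. The protease median also shrank to -0.29 with normexp background correction and to -0.34 over the 3 proteases above background on all arrays. With dim values raised to the lowest signal above background it was -0.49. The gap between the protease and inhibitor medians shrank to -0.01, -0.07 and -0.23 in these settings, in the same order.

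**Figure D5:**
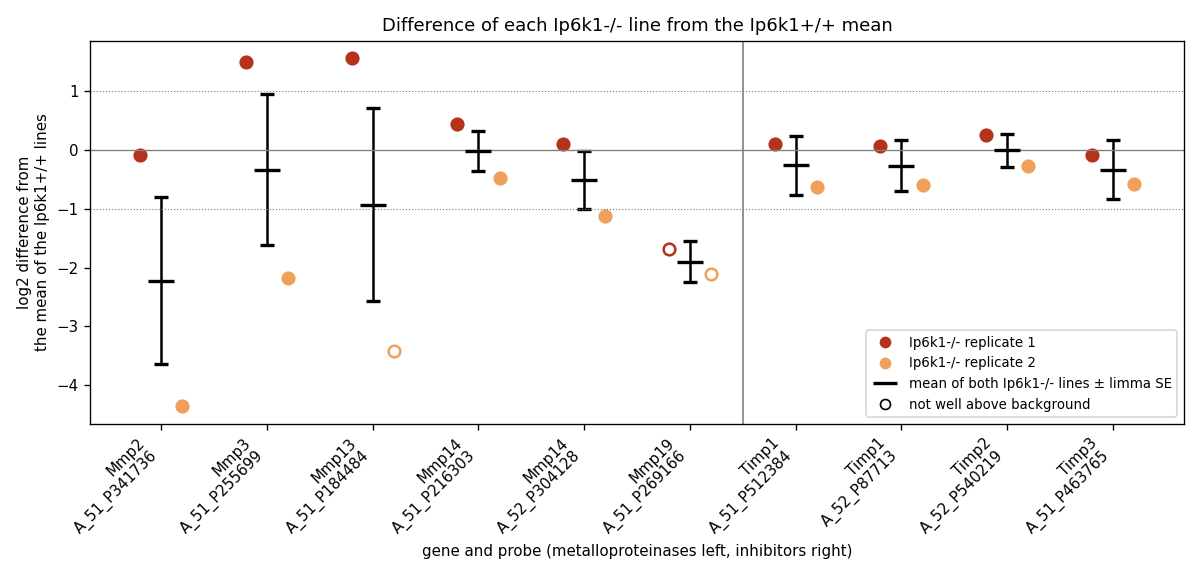
Log2 difference of the Ip6k1-/- lines from the Ip6k1+/+ mean (1 point per line, open where not above background) and the mean of these differences with the limma SE (black) for the 10 tested probes; dotted lines mark 2-fold. The lines stand on opposite sides of 0 for Mmp3, Mmp13, Timp2 and both probes of Mmp14 and Timp1, most widely for Mmp3 and Mmp13. Both lines are below -1 for Mmp19, and no TIMP probe passes 2-fold in either line.

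Other genes that act on this system were counted from lists. Of 14 other metalloproteinases on the array, 4 were tested, and 8, Mmp1a, Mmp7, Mmp8, Mmp12, Mmp20, Mmp21, Mmp24 and Mmp25, were above background in no line. The median difference over the list was -0.59. Of the 4 tested, 1 passed the 2-fold cutoff, lower, beside 1.87% of all probes tested. It was Mmp23, a membrane-bound member, at 0.82, -0.77, -1.64 and -1.26 (difference -1.47, SE 0.58, adjusted p = 0.993 in limma). Its genotypes did not overlap, with both Ip6k1-/- lines below, as on 12.6% of all probes tested. Mmp11, Mmp16 and Mmp17 differed by -0.65, -0.54 and -0.18 without passing either rule.

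Of 4 further inhibitors, only Reck was tested, a membrane-anchored inhibitor of Mmp2, Mmp9 and Mmp14. It was at -0.61, -1.90, -2.16 and -2.38. It passed the 2-fold cutoff, lower, beside 1.87% of all probes tested (difference -1.02, SE 0.51, unadjusted p = 0.104, adjusted p = 0.993 in limma). The genotypes did not overlap, with both Ip6k1-/- lines below, as on 12.6% of all probes tested. The second Ip6k1+/+ line was close to the Ip6k1-/- lines. Timp4 and A2m were above background in no line, and Tfpi2 in Ip6k1+/+ replicate 2 alone.

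Of 11 activators and inducers 9 were tested, 0 passed the cutoff in either direction or the adjusted test, and the median difference was -0.06. Cd44, which holds Mmp9 at the cell surface, differed by 0.38, the protease Ctsb by -0.30 and the urokinase receptor Plaur by -0.03. Plat, the tissue plasminogen activator, was the 1 gene with an unadjusted p under 0.05 in limma, beside 3.34% of all probes tested. Pcsk6, a proprotein convertase named after its values were seen, was at 4.87, -1.39, 3.49 and -0.81, high in replicate 1 and low in replicate 2 of both genotypes. All 11 AP-1 and Ets factors on the array were tested, and 0 passed the cutoff or the adjusted test, with a median difference of -0.01. Junb, on its probe that was not saturated, was at 6.22, 5.31, 5.60 and 4.39, lowest in the line that was low in Mmp2, Mmp3 and Mmp13, and differed by -0.77 (SE 0.52, adjusted p = 0.993 in limma). Fosb, Fosl2 and Jund were also lowest in that line, Fosb at 1.30, 1.87, 1.46 and 0.83. Going the other way, Fosl1, Ets1, Ets2 and Etv4 were highest in it, Fosl1 at 1.26, 1.09, 1.18 and 1.73. Jund differed by -0.05 and Ets2 by 0.44. Etv4 was the 1 gene of the list with an unadjusted p under 0.05 in limma, beside 3.34% of all probes tested.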

How the data were processed

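RNA of 4 MEF lines, 2 of each genotype, was read on 1 single-colour Agilent array each. The authors deposited spot intensity from Feature Extraction 10.5.1.1, background-subtracted and detrended by that software, whose headers give build mm9, and log2 values shifted by the 75th percentile in GeneSpring GX, used here as an alternative.

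The log2 intensity was centred on each array by subtracting the 75th percentile of its 43379 non-control spots. Spots with an outlier flag were left out (96 to 133 per array, none on a member probe) and saturated spots kept. Spots of a probe were averaged. The 75th percentile signal was 610 to 747, and 52.0% to 55.5% of probes were above background. Precision is limited by the number of arrays. Of 41174 probes, 21573 were above background in both lines of 1 genotype or the other and were tested in limma 3.58.1 under R 4.3.3 (lmFit, eBayes, trended variance), and p-values were adjusted over all of them by Benjamini-Hochberg, with a threshold of 0.05. A probe bound is the bright group's mean over the dim group's, with dim values raised to the lowest signal above background on their array. Lines come from separate embryos, and all arrays share 1 slide, so that slide could not be a block.

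The members and gene lists were chosen with earlier results of these data known. Named genes are all members, Ip6k1, and from each pathway list those past the cutoff or adjusted test and the 3 with the highest mean among those above background in every line. Genes outside this rule, such as Sox9, Lyz2, Acp5, Krt8, Thy1, Fosb, Fosl1, Fosl2, Pcsk6, Plat and Etv4, were named after their values were seen. Probe positions within exons or UTRs were not analysed here. Alternatives were normexp (offset 16), quantile and median normalization, other filters, the deposited log2 values and kept outlier spots. Further ones were no variance trend, other fold rules, raised dim values, a replicate block, a t-test and leaving out each line.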

Additional observations from a re-analysis of the deposited data

How the results depend on the processing

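No member passed the adjusted limma test under any alternative run, and the lowest adjusted p of a member was 0.339, with the replicate number as a block. The labels do not say that a number pairs lines. Over the 21573 tested probes, replicate 1 minus 2 correlated between the genotypes at 0.479, and 0 members passed with the block, as without. A t-test in place of limma called 1 member without adjustment, Mmp19 (difference -1.90), beside 3.94% of all probes, and 0 after it. The paper chose its genes by a 2-fold cutoff. The count of members lower by the 2-fold cutoff was 1, Mmp19, but 2 with no filter (with Mmp9), 0 where all 4 arrays had to be above background, and 2 by the mean difference alone or by linear means (with Mmp2). Leaving out 1 line gave 1 to 5 lower, with 5 without Ip6k1-/- replicate 1 (Mmp2, Mmp3, Mmp13, Mmp14 and Mmp19), and 2 without Ip6k1+/+ replicate 1, and 0 to 3 higher, with 3 without Ip6k1-/- replicate 2 (Mmp3, Mmp10 and Mmp13). Without Ip6k1-/- replicate 1, Mmp14 passed on probe A_52_P304128 alone (difference -1.13), and its brighter probe differed by -0.48. Leaving out 1 line, the protease median ranged from -2.17 to 0.98 and its gap to the inhibitors from -1.59 to 0.91. The upper ends came without Ip6k1-/- replicate 2. The inhibitor median ranged from -0.80 to 0.28.

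With the median shift, Mmp14 (A_51_P216303) and Timp2 turned to 0.031 and 0.040, while the median of all probes moved to 0.10. Leaving out 1 line, differences ranged from -2.17 to 1.50 for Mmp3, -3.42 to 1.57 for Mmp13, -0.48 to 0.45 and -1.13 to 0.11 for the Mmp14 probes, -0.88 to 0.36 and -0.80 to 0.28 for the Timp1 probes, -0.28 to 0.26 for Timp2 and -1.03 to 0.36 for Timp3. Mmp2 (-4.36 to -0.08) and Mmp19 (-2.12 to -1.68) kept their direction. The cause of these changes was not tested. Leaving out a line also changed the filter, from 10 member probes tested to 13 without Ip6k1+/+ replicate 1 and 11 without Ip6k1-/- replicate 2. Signal near background limits Mmp9, Mmp10, Mmp13 and Mmp19 to bounds in the dim lines, and saturation limits Timp2 and 1 Timp1 probe. With 2 lines per genotype the gap between lines sets the error.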
